A study of Mus musculus with 24 samples.

Results

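The liver genes that make, release, burn or store glucose were followed in hypothyroid mice given thyroid hormone. The 9 genes are G6pc, Pck1, Fbp1 and Slc2a2 on the side of glucose production and release, Pklr in glycolysis, and Ppp1r3g, Ppp1r3b, Ppp1r3c and Gys2 in glycogen storage. They were chosen by name, with earlier results of these data known, and their probe sets are those whose array annotation gives the symbol alone. Thus 9 of the 18194 genes on the array are described here through 14 probe sets. Counts among them beside the share of all genes are descriptions. Pck1 and Pklr had 3 probe sets each, Ppp1r3c had 2, and each of the 6 other genes had 1. All 9 passed the filter on low values, and no value of theirs was missing.

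RNA of whole liver was measured on 24 arrays in 8 groups of 3, each array taken as 1 mouse because its title number differs from all others. All mice were male and hypothyroid, and the livers were taken 6 h after an injection of the hormone T3 or of PBS alone. Wild type mice (WT), mice with a knockout of the thyroid hormone receptor TRβ (KO) and mice whose TRβ carries E125G and G126S in its DNA-binding domain (GS) had a C57BL/6J background. They were 8 to 9 weeks old and drank 0.02% methimazole, 0.5% perchlorate and 0.3% saccharin for 3 weeks on a low iodine diet before T3 at 20 µg per 100 g. The fourth genotype, Y147F, changes a tyrosine of TRβ that is tied to signalling through a kinase outside the nucleus. These mice (C57BL/6JCrl) were 10 to 11 weeks old and received 0.05% methimazole and 1% perchlorate for 3 weeks, with no saccharin recorded. Their T3 dose, 200 ng per g, is the same dose in another unit. They were deposited later, so that their genotype, background, age, antithyroid drinking water and submission cannot be told apart. The labels do not restrict any receptor change to the liver and name no change of TRα, the other T3 receptor. The comparisons ask which T3 responses of the liver need TRβ, its binding to DNA, or that tyrosine.

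TRβ is the main T3 receptor of hepatocytes. As a dimer with RXR it sits on DNA elements built from the half-site AGGTCA, often as a direct repeat with a spacer, and T3 turns it from a repressing to an activating factor at many target genes. The liver makes glucose from lactate and amino acids with Pck1 (phosphoenolpyruvate carboxykinase), Fbp1 (fructose-1,6-bisphosphatase) and G6pc (the catalytic subunit of glucose-6-phosphatase), and lets it pass the membrane through Slc2a2 (the transporter GLUT2). Pklr, the liver form of pyruvate kinase, closes glycolysis. Gys2, the liver glycogen synthase, is switched on by protein phosphatase 1, which the targeting subunits Ppp1r3b (GL), Ppp1r3c (PTG) and Ppp1r3g bring to glycogen. Thyroid hormone is known to raise hepatic glucose output and to lower liver glycogen.

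The 250 bases before the RefSeq start site (assembly GRCm38.p6) are shown for the genes on which the results turn most. These are Ppp1r3c and Ppp1r3g, whose values moved farthest, Pklr at its downstream start, used in liver, and G6pc. They are printed 5′ to 3′ on the gene's strand, and capitals mark a match to 1 of the motifs searched on both strands.
Ppp1r3c, chr19:36736605-36736854, minus strand: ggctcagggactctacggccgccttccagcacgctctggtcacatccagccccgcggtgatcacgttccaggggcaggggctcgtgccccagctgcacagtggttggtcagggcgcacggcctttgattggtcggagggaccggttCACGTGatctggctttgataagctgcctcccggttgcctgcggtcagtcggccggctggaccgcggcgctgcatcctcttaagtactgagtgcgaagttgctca
Ppp1r3g, chr13:35967656-35967905, plus strand: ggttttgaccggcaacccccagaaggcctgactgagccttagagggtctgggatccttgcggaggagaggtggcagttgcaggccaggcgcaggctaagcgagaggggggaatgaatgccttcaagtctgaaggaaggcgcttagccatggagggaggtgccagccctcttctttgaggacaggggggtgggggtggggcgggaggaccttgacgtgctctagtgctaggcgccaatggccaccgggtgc
Pklr, chr3:89136373-89136622, plus strand: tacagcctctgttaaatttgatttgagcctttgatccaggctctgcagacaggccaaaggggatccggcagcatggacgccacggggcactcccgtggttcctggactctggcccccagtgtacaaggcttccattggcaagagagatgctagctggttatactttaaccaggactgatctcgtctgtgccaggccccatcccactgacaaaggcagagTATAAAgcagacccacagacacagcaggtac
G6pc, chr11:101367466-101367715, plus strand: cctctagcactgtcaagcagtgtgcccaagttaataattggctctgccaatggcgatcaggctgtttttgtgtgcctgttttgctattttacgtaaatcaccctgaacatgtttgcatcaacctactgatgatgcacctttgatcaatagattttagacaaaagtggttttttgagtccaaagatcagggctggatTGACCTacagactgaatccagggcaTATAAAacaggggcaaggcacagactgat

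In the Ppp1r3c window the capitals are the E-box CACGTG, at -104 to -99 from the start site. In Pklr they are the TATA box TATAAA at -31 to -26. In G6pc they are TATAAA at -29 to -24 and, at -54 to -49, TGACCT, the half-site AGGTCA read on the opposite strand. The Ppp1r3g window held none of the motifs. Among the 8 windows found for 7 of the 9 genes, AGGTCA also stood in Slc2a2 at -21 to -16 and in the upstream window of Pklr at -151 to -146. It occurs in 14.0% of the 32851 windows of this length in the table, TATAAA in 12.4% and CACGTG in 6.02%. No window of these genes held an exact match to the cyclic AMP element TGACGTCA (1.55% of all windows) or the forkhead site GTAAACA (3.17%). None held AGGTCA repeated after 4 bases, exact (0.0152%) or with up to 1 mismatch (0.240%). The Pck1 window holds TTACGTCA, which differs from TGACGTCA only in its second base and was not counted. Gys2 and Ppp1r3b were not in that table. A match of letters is a description of the window and not a binding site.

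All values below are RMA intensities on a log2 scale or differences of them. With 3 arrays a group their number sets the precision. The median of an array was 5.88 to 6.00, and the correlation within groups was 0.994 to 0.997. All 9 hepatocyte markers measured (such as Alb, Apoa1 and Ttr) lay above the median on every array. The same held for the 11 markers of sinusoidal endothelium, for 11 or all of the 12 Kupffer cell markers and for 10 or all of the 11 stellate cell markers, so the RNA is that of mixed liver. Of the other lists, 4 of 6 cholangiocyte markers, 2 of 4 adipocyte, 1 or 2 of 5 pancreatic acinar and 0 or 1 of 3 erythroid markers did so. Fewer cells of a type and less RNA per cell cannot be told apart in such samples. The probe set of Thrb, the gene for TRβ, did not show the knockout: it read 7.25, 6.82 and 6.89 in KO PBS mice and 6.64, 7.01 and 6.75 in WT PBS mice. Its position relative to the deleted part is not known here, so it does not check the labels. Gene-wide tests used limma on 14160 genes, with p-values adjusted by Benjamini and Hochberg over these genes, and a gene is called where the adjusted p is under 0.05.

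**Figure D1:**
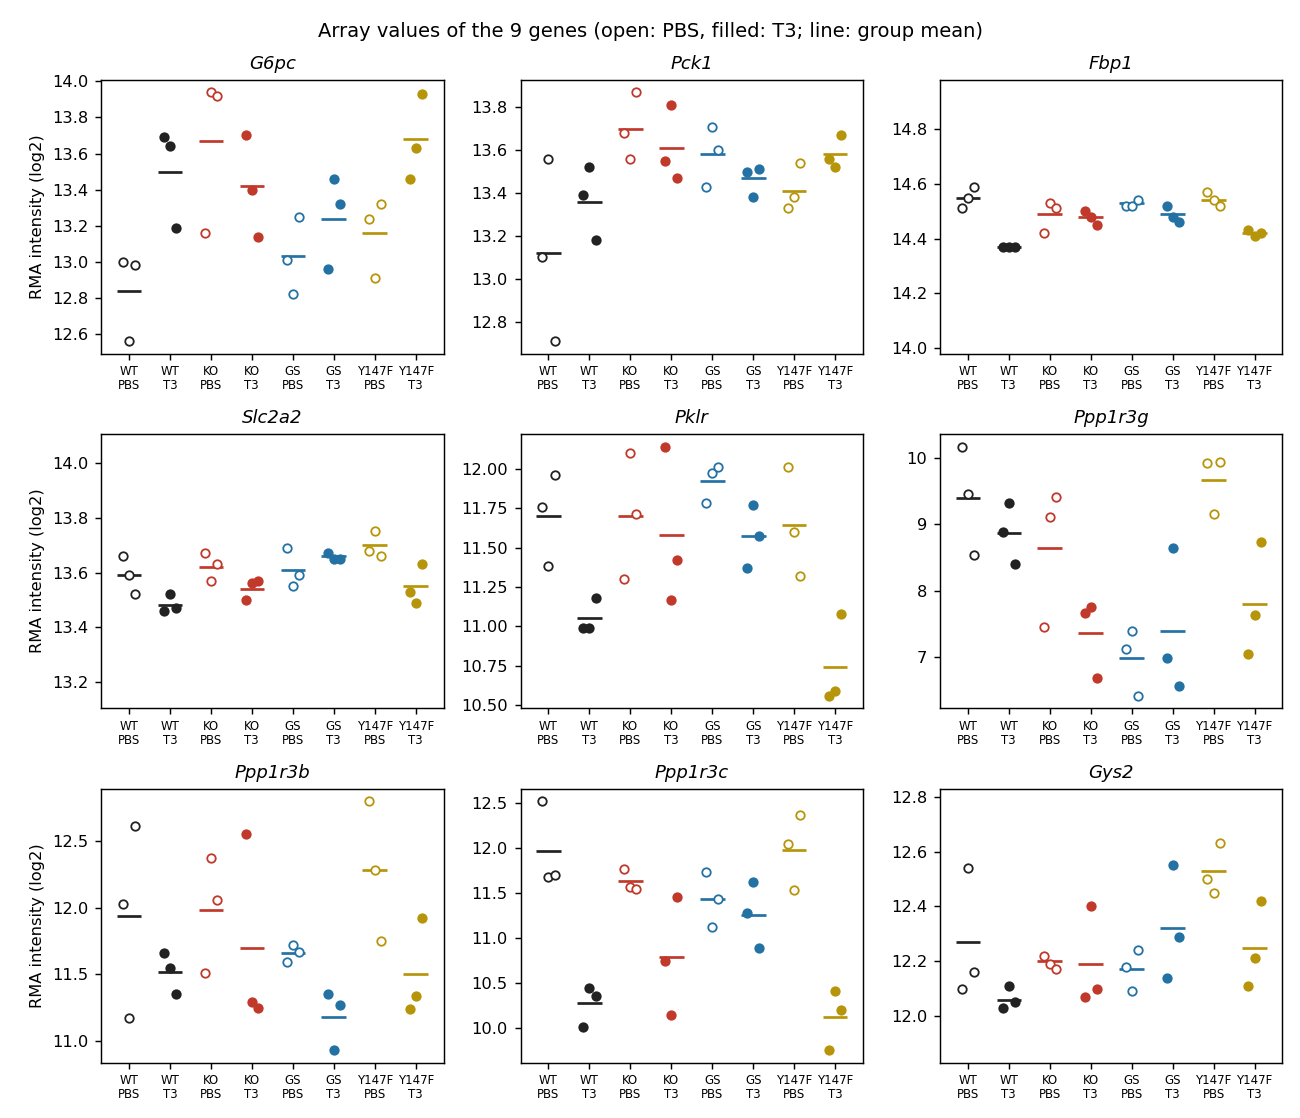
Each panel plots 1 gene, with RMA intensity (log2) against the 8 groups of genotype and treatment. Open points are PBS arrays, filled points T3 arrays and lines group means of 3 arrays. The T3 arrays of Ppp1r3c in WT and Y147F lie between 9.76 and 10.45, below every other array of the gene except 1 KO T3 array at 10.15.

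In WT mice T3 lowered Ppp1r3c by 3.23-fold, lowered Fbp1 slightly and raised G6pc. These were the 3 of 9 genes called, where 10.6% of all genes tested were. With Pklr the unadjusted p was under 0.05 for 4 of 9, and the median difference of the 9 was -0.20 against -0.03 over all genes. In Y147F mice 3 of 9 were called again, against 11.6% of all genes: Ppp1r3c, Ppp1r3g and Pklr all fell. There the unadjusted p was under 0.05 for 8 of 9, every gene but Pck1, and the median was -0.28 against -0.01. In KO mice 0 of 9 were called (0.177% of all genes) and in GS mice 0 of 9 (0.148%). At an unadjusted p under 0.05, 2 were found in KO, Ppp1r3c and Ppp1r3g, and 0 in GS.

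**Figure D2:**
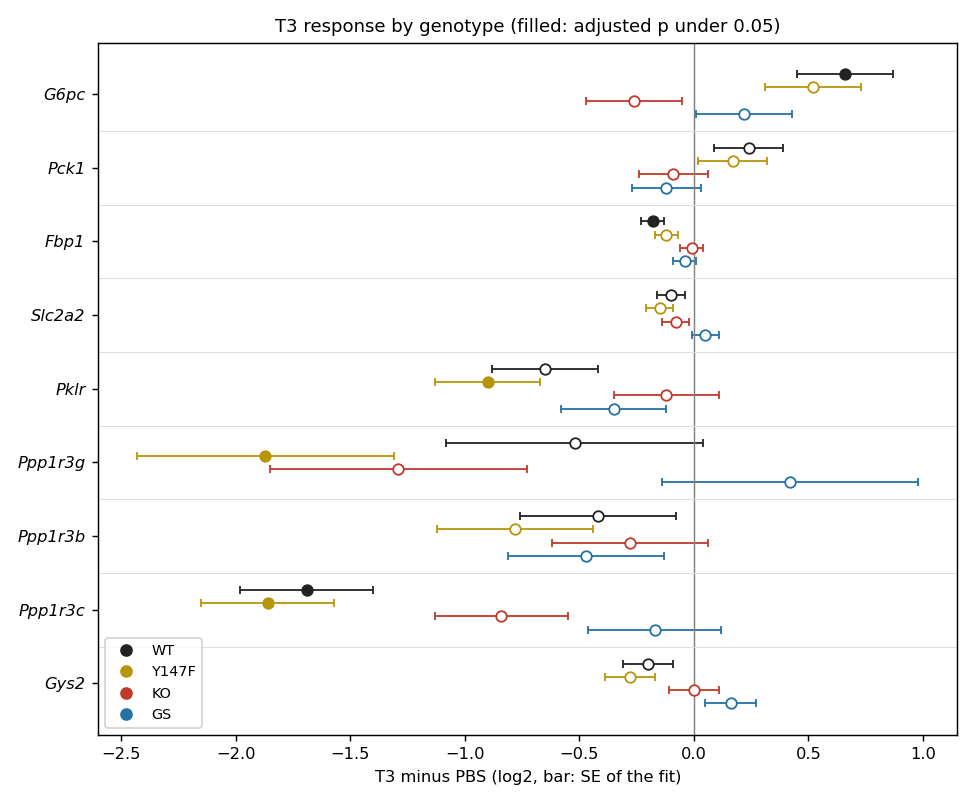
The horizontal axis gives T3 minus PBS (log2) for each of the 9 genes in WT, Y147F, KO and GS mice, with the SE of the fit as a bar and filled points where the adjusted p is under 0.05. Ppp1r3c is at -1.69 in WT, -1.86 in Y147F, -0.84 in KO and -0.17 in GS. G6pc and Pck1 are above 0 in WT and Y147F.

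Among the genes of glucose release, G6pc read 13.00, 12.56 and 12.98 in WT PBS mice and 13.69, 13.64 and 13.19 in WT T3 mice, so that the groups did not overlap. It rose by 0.66 ± 0.21 (SE), or 1.58-fold (limma, adjusted p = 0.0459). This call is weak. The adjusted p ran from 0.0539 to 0.198 without any 1 of the 3 WT PBS arrays, of WT T3 replicates 1 and 2, of KO T3 replicate 2, GS T3 replicate 3, GS PBS replicate 1, Y147F PBS replicate 1 or Y147F T3 replicate 2, while the difference stayed between 0.52 and 0.74. It was 0.0533 to 0.0723 in 4 of 10 alternative settings. In Y147F mice G6pc read 13.24, 12.91 and 13.32 with PBS and 13.46, 13.63 and 13.93 with T3, again without overlap, at 0.52 ± 0.21 (adjusted p = 0.121). KO mice gave -0.26 ± 0.21 and GS mice 0.22 ± 0.21, with overlapping arrays in both.

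Pck1 was called in no genotype. Its differences were 0.24 ± 0.15 in WT, 0.17 ± 0.15 in Y147F, -0.09 ± 0.15 in KO and -0.12 ± 0.15 in GS, and T3 and PBS arrays overlapped each time. In WT the PBS mice were scattered, at 13.10, 13.56 and 12.71, and without WT PBS replicate 2, the highest, the WT difference was 0.46 and passed (adjusted p = 0.0315). A second probe set of Pck1 gave 0.31 ± 0.19 in WT and 0.37 ± 0.19 in Y147F, and the remaining one lay between 4.54 and 5.64, no higher than percentile 44.7 of its array.

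Fbp1 read 14.51, 14.55 and 14.59 in WT PBS mice and 14.37 in all 3 WT T3 mice. It fell by 0.18 ± 0.05, 1.13-fold (adjusted p = 0.0178), a small change far outside the spread of these arrays. The call was lost without any 1 of the 3 WT T3 arrays (adjusted p = 0.0526, 0.0545 and 0.0504) or of WT PBS replicates 2 (0.0519) and 3 (0.0776), with values of -0.18 to -0.16, and when only the 6 WT arrays were fitted (0.133). In Y147F mice the T3 arrays (14.43, 14.41 and 14.42) also lay below the PBS arrays (14.57, 14.54 and 14.52), at -0.12 ± 0.05 (adjusted p = 0.104). KO and GS mice stood at -0.01 ± 0.05 and -0.04 ± 0.05. Fbp1 lies close to the upper end of the scale, where the highest value of any probe set was 15.21.

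Slc2a2 varied little, between 13.46 and 13.75 over all arrays, and was called in no genotype. The T3 differences were -0.10 ± 0.06 in WT, -0.15 ± 0.06 in Y147F (adjusted p = 0.0886, no overlap), -0.08 ± 0.06 in KO (also no overlap) and 0.05 ± 0.06 in GS. In Y147F it passed without Y147F T3 replicate 3 (-0.19, adjusted p = 0.0456), with a variance trend and robust moderation (0.0339) and with array weights (0.0284).

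Pklr, the glycolytic enzyme of the set, read 12.01, 11.60 and 11.32 in Y147F PBS mice and 10.56, 10.59 and 11.08 in Y147F T3 mice. All T3 arrays were below all PBS arrays, and Pklr fell by 0.90 ± 0.23, 1.87-fold (adjusted p = 0.0122). Its 2 other probe sets gave -0.85 ± 0.22 and -0.97 ± 0.20 there. The call was lost without Y147F PBS replicate 1 (-0.72, adjusted p = 0.0723), Y147F T3 replicate 1 (-0.81, 0.0625) or Y147F T3 replicate 2 (-0.82, 0.0554). In WT mice the T3 arrays (10.99, 10.99 and 11.18) were below the PBS arrays (11.76, 11.38 and 11.96) too, at -0.65 ± 0.23 (adjusted p = 0.0808), which passed without KO T3 replicate 1 (-0.65, 0.0390) and with only the 6 WT arrays fitted (0.0279). GS mice stood at -0.35 ± 0.23 (adjusted p = 0.835). There too the T3 arrays (11.37, 11.77 and 11.57) lay below all PBS arrays (11.78, 11.97 and 12.01). KO mice stood at -0.12 ± 0.23, with overlap. In KO 1 T3 array, at 12.14, was the highest of the 24 and the other 2 were at 11.17 and 11.42.

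Ppp1r3c, the targeting subunit PTG, had the largest T3 difference of the 9 genes in WT. It read 12.52, 11.68 and 11.70 with PBS and 10.02, 10.45 and 10.36 with T3, so each T3 array lay more than 1 log2 below each PBS array. It fell by 1.69 ± 0.29, 3.23-fold (adjusted p = 3.67e-04). In Y147F mice it read 12.05, 11.54 and 12.37 with PBS and 9.76, 10.41 and 10.21 with T3, and fell by 1.86 ± 0.29, 3.62-fold (adjusted p = 1.50e-04). Both calls held in all alternative settings and without any 1 array. The second probe set gave -1.78 ± 0.26 in WT and -1.88 ± 0.26 in Y147F. In KO mice the T3 arrays stood at 10.75, 10.15 and 11.46, below the PBS arrays at 11.77, 11.57 and 11.55 but widely spread. The difference of -0.84 ± 0.29 (95% interval -1.45 to -0.24) was not called (adjusted p = 0.288). The second probe set gave -0.83 ± 0.26 in KO, also without overlap and not called (adjusted p = 0.257). In GS mice PBS arrays (11.73, 11.12 and 11.44) and T3 arrays (11.28, 11.62 and 10.89) overlapped, at -0.17 ± 0.29 with a 95% interval of -0.77 to 0.44.

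Ppp1r3g, another targeting subunit, was the most variable of the 9 genes, with group means spanning 2.70 log2. In Y147F mice it read 9.93, 9.15 and 9.94 with PBS and 7.05, 7.63 and 8.73 with T3, without overlap, and fell by 1.87 ± 0.56, 3.66-fold (adjusted p = 0.0329). The call was lost without Y147F PBS replicate 1 (-1.74, adjusted p = 0.0955) or 3 (-1.74, 0.100), without Y147F T3 replicate 1 (-1.49, 0.170) or 2 (-1.78, 0.0946), with a variance trend and robust moderation (0.0607), and with a covariate for arrays whose title number is over 100000 (-1.51, 0.160). All Y147F PBS arrays have title numbers over 100000, while of the Y147F T3 arrays only replicate 3 does. Title number and treatment are thus largely aligned in Y147F. KO mice gave -1.29 ± 0.56 (adjusted p = 0.431), WT mice -0.52 ± 0.56 and GS mice 0.42 ± 0.56, all with overlapping arrays. A spread this wide leaves WT differences from -1.68 to 0.65 within the 95% interval.

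The 2 remaining glycogen genes were called in no genotype. Ppp1r3b, the subunit GL, stood at -0.42 ± 0.34 in WT, -0.78 ± 0.34 in Y147F (adjusted p = 0.161), -0.28 ± 0.34 in KO and -0.47 ± 0.34 in GS. The 3 GS T3 arrays (11.35, 10.93 and 11.27) lay below the 3 GS PBS arrays (11.59, 11.72 and 11.67), while in WT the PBS arrays ran from 11.17 to 12.61 around the T3 arrays. Gys2, the synthase, stood at -0.20 ± 0.11 in WT, -0.28 ± 0.11 in Y147F (adjusted p = 0.133), -0.00 ± 0.11 in KO and 0.16 ± 0.11 in GS. In Y147F its T3 arrays (12.11, 12.21 and 12.42) lay below its PBS arrays (12.50, 12.45 and 12.63).

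Beside these T3 differences, the summed linear intensity of the 11 endothelial markers ran from 8868 to 9558 in WT PBS mice and from 7332 to 7799 in WT T3 mice. It ran from 9204 to 10311 and from 7665 to 8944 in Y147F, from 8059 to 8604 and from 6580 to 8565 in KO, and from 8599 to 8803 and from 7314 to 7797 in GS. The ranges with PBS and T3 overlapped in KO and not in the other genotypes. Hepatocyte markers summed to 201199 to 202310 in WT PBS mice and to 196768 to 197945 in WT T3 mice. Of 5 pancreatic acinar markers, 1 or 2 lay above the array median and 3 were tested, of which Cela2a was the 1 called with T3 in WT and in Y147F. The sum of the 5 ran from 226 to 231 with PBS and from 252 to 311 with T3 in WT, and from 218 to 249 and from 258 to 287 in Y147F. In KO it ran from 221 to 248 and from 224 to 253, and in GS from 228 to 241 and from 227 to 242. Cela2a, an elastase, rose in WT by 1.35 ± 0.15 (adjusted p = 1.73e-06) and in Y147F by 0.83 ± 0.15 (6.47e-04). The part of these cells in the results was not tested.

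Whether the T3 response differed between genotypes was tested as an interaction. The comparisons with WT share the WT arrays, so their values stand side by side and are not independent. The Ppp1r3c response of GS minus that of WT was 1.52 ± 0.41 (adjusted p = 0.0470), the 1 of 9 genes called, against 2.92% of all genes. At an unadjusted p under 0.05 there were 3, with Fbp1 (0.14 ± 0.07) and Gys2 (0.36 ± 0.16). The call sits at the threshold. The adjusted p was 0.0523 to 0.140 without any 1 of 15 arrays, the difference 1.25 to 1.61, and 0.0500 to 0.0846 in 6 of 10 alternative settings. The 15 were the 3 WT T3, the 3 KO PBS, WT PBS replicate 1, KO T3 replicate 1, GS T3 replicates 1 and 2, GS PBS replicates 2 and 3, Y147F PBS replicate 1, and Y147F T3 replicates 2 and 3. The second probe set, tested among all probe sets, gave 1.62 ± 0.36 (adjusted p = 0.0163). This response difference holds 2 parts. Ppp1r3c in GS minus WT was -0.54 ± 0.29 with PBS (limma, adjusted p = 0.433) and 0.99 ± 0.29 after T3.

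For KO minus WT, 0 of 9 responses were called, against 3.09% of all genes, and 2 had an unadjusted p under 0.05. G6pc stood at -0.92 ± 0.29 (adjusted p = 0.117), which passed without KO PBS replicate 1 (-1.17, 0.0180), and Fbp1 at 0.17 ± 0.07 (adjusted p = 0.252). Ppp1r3c stood at 0.85 ± 0.41 (adjusted p = 0.405, 95% interval -0.00 to 1.70). For Y147F minus WT, 0 of 9 were called and 0 had an unadjusted p under 0.05, with 0% of all genes called. The 95% interval for Ppp1r3c ran from -1.02 to 0.69 and that for Ppp1r3g from -3.00 to 0.30, so differences of that size lie within the error. For GS minus KO, 0 of 9 were called and 0% of all genes, and Ppp1r3g alone had an unadjusted p under 0.05 (1.71 ± 0.79, adjusted p = 0.865).

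Means over similar genotypes were added to narrow the errors, that of WT and Y147F, and the difference of the means, after the genes' values had been seen. The mean T3 response of KO and GS gave 0 of 9 called, against 0.614% of all genes, with Ppp1r3c at -0.50 ± 0.20 (adjusted p = 0.355) the 1 with an unadjusted p under 0.05. The mean of WT and Y147F gave 7 of 9, against 21.4% of all genes. G6pc rose by 0.59 ± 0.15 (adjusted p = 0.00596). The other 6 fell: Ppp1r3c (-1.77 ± 0.20, 1.43e-06), Ppp1r3g (-1.19 ± 0.40, 0.0354), Pklr (-0.77 ± 0.16, 0.00140), Gys2 (-0.24 ± 0.08, 0.0392), Fbp1 (-0.15 ± 0.03, 0.00244) and Slc2a2 (-0.13 ± 0.04, 0.0263). The calls of Ppp1r3c, G6pc, Pklr and Fbp1 held in every alternative fit made. None was made of the first-submitted arrays alone, which hold no Y147F mice. With the title-number covariate, largely aligned with treatment in Y147F, the calls of Slc2a2 (-0.08, adjusted p = 0.188), Ppp1r3g (-0.92, 0.179) and Gys2 (-0.27, 0.0502) were lost. The calls of Slc2a2 (0.0833) and Gys2 (0.0557) were also lost when only the arrays compared were fitted. The Ppp1r3g call was also lost with a variance trend and robust moderation (0.0637). That of Slc2a2 was lost without WT T3 replicate 1 or 3, WT PBS replicate 1, Y147F PBS replicate 2 or Y147F T3 replicate 1 or 2 (adjusted p of 0.0549 to 0.0750, differences of -0.12 to -0.11). That of Ppp1r3g was lost without WT T3 replicate 1 or 3, WT PBS replicate 1 or 2, Y147F PBS replicate 1 or 3 or Y147F T3 replicate 1 or 2 (0.0578 to 0.103). That of Gys2 was lost without any 1 of the 3 WT T3 arrays, WT PBS replicate 2, Y147F PBS replicate 1 or 3 or Y147F T3 replicate 1 or 2 (0.0513 to 0.124, differences of -0.25 to -0.17). Ppp1r3b (-0.60 ± 0.24, adjusted p = 0.0860) passed without WT PBS replicate 2 (-0.79, 0.0184), KO T3 replicate 1 (-0.60, 0.0433) or Y147F PBS replicate 3 (-0.73, 0.0435), and Pck1 passed without WT PBS replicate 2 (0.31, 0.0146). The difference of the 2 means was called for Ppp1r3c, at 1.27 ± 0.29 (adjusted p = 0.00817), 1 of 9 against 7.30% of all genes, and that call held in every alternative fit. The 4 others with an unadjusted p under 0.05 were G6pc (-0.61 ± 0.21, which passed without KO PBS replicate 1 at -0.74, adjusted p = 0.0176), Fbp1 (0.13 ± 0.05), Pklr (0.54 ± 0.23) and Gys2 (0.32 ± 0.11). Pck1 passed without WT PBS replicate 2 (-0.42, adjusted p = 0.0417).

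**Figure D3:**
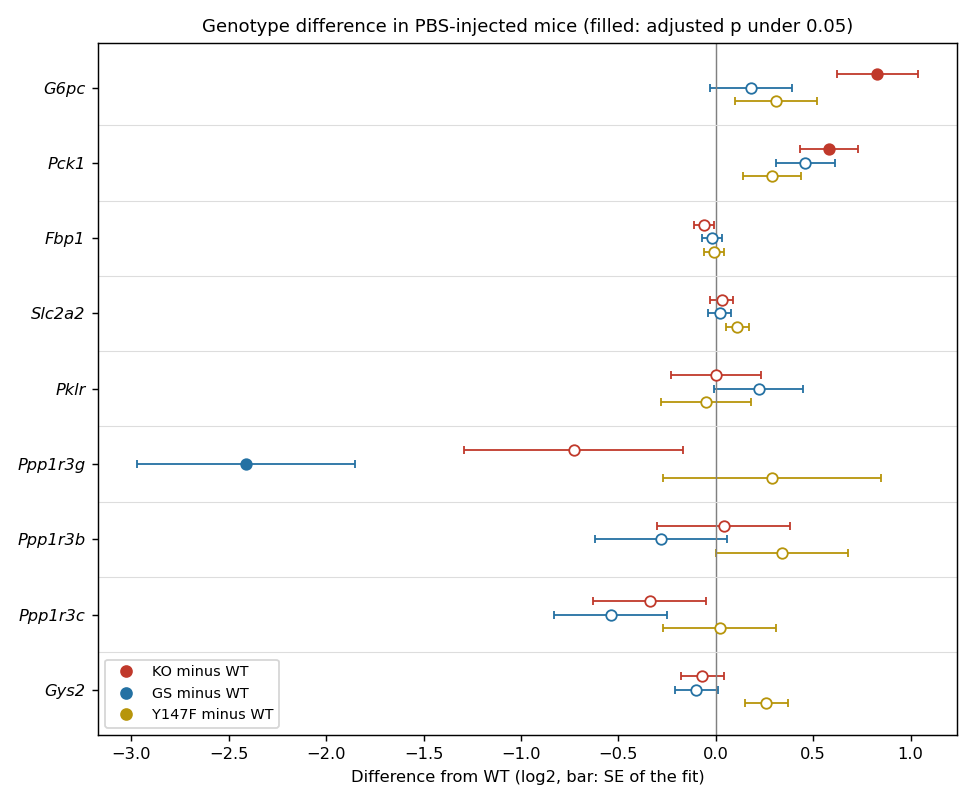
The horizontal axis gives the difference from WT (log2) among PBS-injected mice for KO, GS and Y147F, with the SE of the fit as a bar and filled points where the adjusted p is under 0.05. G6pc (0.83) and Pck1 (0.58) are filled for KO and Ppp1r3g (-2.41) for GS.

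Without T3, the genotypes differed in other genes of the set. In KO mice G6pc and Pck1, which bracket gluconeogenesis, were higher than in WT: 2 of 9 were called, against 6.87% of all genes. G6pc read 13.16, 13.94 and 13.92 in KO, above the WT PBS arrays (13.00, 12.56 and 12.98), a difference of 0.83 ± 0.21, 1.78-fold (adjusted p = 0.0181). Pck1 read 13.68, 13.56 and 13.87, against 13.10, 13.56 and 12.71 in WT, a difference of 0.58 ± 0.15, 1.50-fold (adjusted p = 0.0204), where the lowest KO array and the highest WT array both stood at 13.56. Its second probe set gave 0.85 ± 0.19 without overlap. The WT PBS mean was the lowest of the 8 group means for G6pc (12.84) and for Pck1 (13.12). The same WT PBS arrays enter the T3 difference in WT and the KO response minus that of WT. Those results are therefore not independent of this one. In both genes the KO level with PBS was at or above the WT level with T3 (means of 13.67 and 13.50 for G6pc, 13.70 and 13.36 for Pck1), and 0 of 9 genes were called between KO and WT after T3, against 6.93% of all genes. There 3 had an unadjusted p under 0.05: Fbp1 (0.11 ± 0.05), Pklr (0.53 ± 0.23) and Ppp1r3g (-1.50 ± 0.56).

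The G6pc call in KO was lost without WT PBS replicate 2 (0.68, adjusted p = 0.103), KO PBS replicate 2 (0.69, 0.0965) or KO PBS replicate 3 (0.71, 0.0974), and that of Pck1 without WT PBS replicate 1 (0.57, 0.0599), WT PBS replicate 3 (0.38, 0.126) or KO PBS replicate 3 (0.50, 0.105). The Pck1 call was also lost with the mean of probe sets (0.41, 0.115). All KO arrays have title numbers over the limit of the title-number covariate, while of the WT arrays only PBS replicate 1 does. Title number and genotype are thus largely aligned in this comparison. Both calls were lost with that covariate (0.80, adjusted p = 0.0600, and 0.60, 0.0519) and when only the 6 arrays compared were fitted (0.0903 and 0.170). Beside them, the summed intensity of the 12 Kupffer markers ran from 9462 to 10737 in KO PBS mice and from 8253 to 9161 in WT PBS mice, with Clec4f 0.59 ± 0.18 higher (adjusted p = 0.0498). That of hepatocyte markers ran from 198176 to 206323 and from 201199 to 202310. The 11 stellate markers summed to 11198 to 13297 and to 10741 to 12343, with a list median of 0.36 against 0.00 over all genes. Lrat, the 1 of 11 called, went the other way (-1.15 ± 0.22, adjusted p = 0.00319). Their part in the result was not tested.

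In GS mice without T3, Ppp1r3g was the gene that differed. It read 7.13, 7.39 and 6.42, against 10.17, 9.45 and 8.54 in WT, a difference of -2.41 ± 0.56, 5.31-fold (adjusted p = 0.0199). The groups lay more than 1 log2 apart. This was 1 of 9 genes called, against 2.96% of all genes, and it held in all 10 alternative settings. It was lost without WT PBS replicate 1 (-2.02, adjusted p = 0.106) or 2 (-2.38, 0.0679), or without GS PBS replicate 1 (-2.48, 0.0544) or 3 (-2.13, 0.104). Hepatocyte markers summed to 206167 to 206508 in GS PBS mice, above the 201199 to 202310 of WT. Stellate markers summed to 9918 to 10713, below the 10741 to 12343 of WT, with a list median of -0.12 and Lrat the 1 of 11 called (-1.13 ± 0.22, adjusted p = 0.00555). Their part was not tested. Pck1 was 0.46 ± 0.15 higher in GS (adjusted p = 0.112), which passed without WT PBS replicate 2 (0.68, 0.00677). In KO mice Ppp1r3g spread from 7.45 to 9.41 (-0.73 ± 0.56 from WT). GS minus KO gave 0 of 9 called, against 0.0989% of all genes, with Ppp1r3g at -1.67 ± 0.56 (adjusted p = 0.281) and G6pc at -0.65 ± 0.21 (adjusted p = 0.255) the 2 with an unadjusted p under 0.05. Y147F minus WT gave 0 of 9, against 0.0847%, with 1 unadjusted p under 0.05, for Gys2 (0.26 ± 0.11, adjusted p = 0.316).

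After T3, Ppp1r3c was higher in GS than in WT, with arrays of 11.28, 11.62 and 10.89 against 10.02, 10.45 and 10.36. The difference was 0.99 ± 0.29, 1.98-fold (adjusted p = 0.0494), the 1 of 9 genes called, against 5.61% of all genes, and 6 had an unadjusted p under 0.05. The call was lost in 6 of 10 settings (adjusted p up to 0.0898) and without any 1 of 17 arrays, at 0.81 to 1.07 with adjusted p from 0.0521 to 0.188. The arrays whose loss left it called were WT PBS replicate 1, KO T3 replicates 2 and 3, GS T3 replicate 3, Y147F PBS replicates 2 and 3 and Y147F T3 replicate 1. Ppp1r3g passed without GS T3 replicate 2 (-2.09, adjusted p = 0.0404), and was -1.47 ± 0.56 with it. Kupffer markers summed to 8622 to 14684 in GS T3 mice and to 6906 to 9499 in WT T3 mice, with Clec4f 0.61 ± 0.18 higher (adjusted p = 0.0497), and their part was not tested. GS minus KO gave 0 of 9 called and 0 with an unadjusted p under 0.05, against 0.106% of all genes called. Y147F minus WT gave 0 and 0, against 0.00706%.

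**Figure D4:**
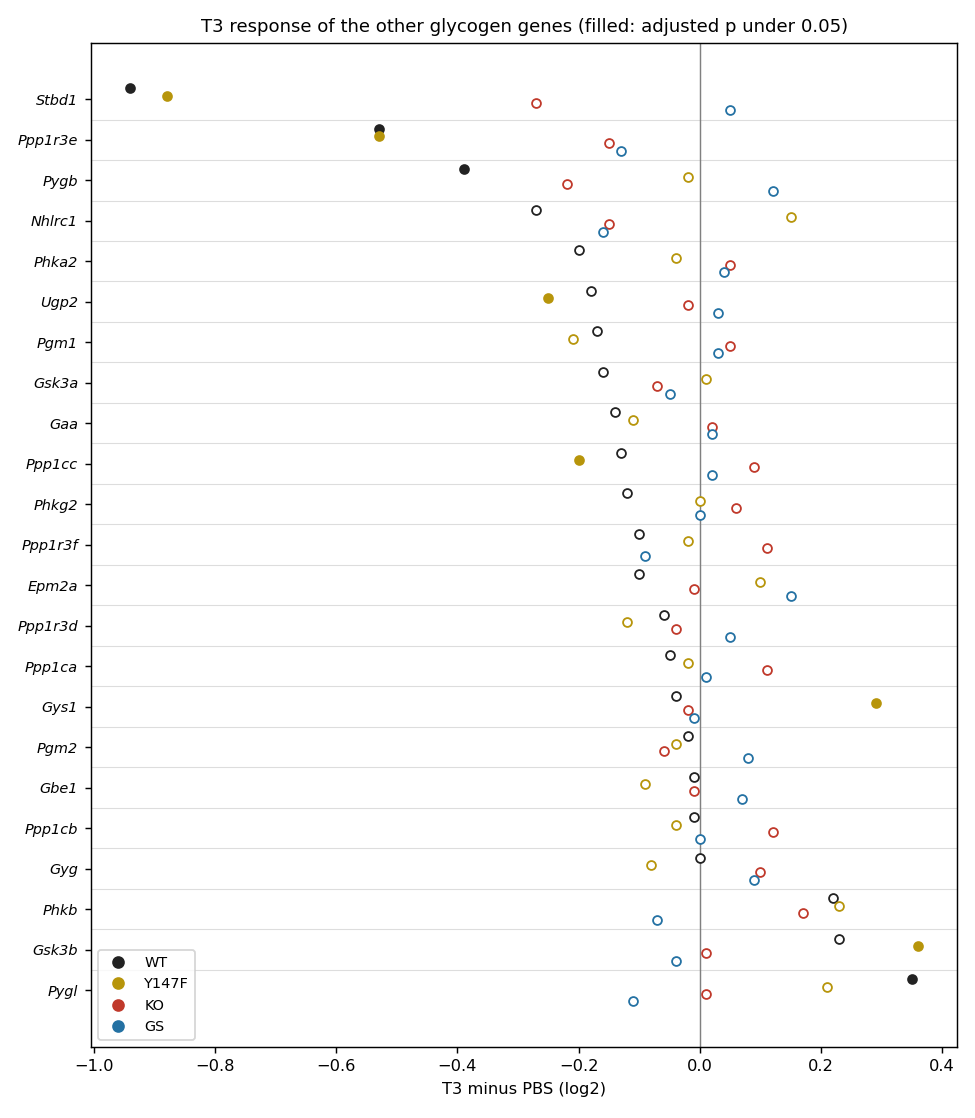
The horizontal axis gives T3 minus PBS (log2) for the 23 other glycogen genes tested, with 1 point per genotype and filled points where the adjusted p is under 0.05. Stbd1 stands at -0.94 in WT and -0.88 in Y147F and Ppp1r3e at -0.53 in both, while KO and GS have no filled point.

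The other genes of these pathways were taken from fixed lists, also chosen with earlier results of these data known. Of 23 other glycogen genes tested, 4 were called with T3 in WT, 1 higher and 3 lower, where 10.6% of all genes were called, and the list median was -0.10 against -0.03 over all genes. Stbd1, which anchors glycogen to membranes, read 11.95, 11.84 and 11.58 with PBS and 11.07, 10.85 and 10.64 with T3, and fell by 0.94 ± 0.14 (adjusted p = 6.68e-05). Ppp1r3e, a further targeting subunit, fell by 0.53 ± 0.15 (0.0304) and the brain form of phosphorylase, Pygb, by 0.39 ± 0.11 (0.0329), while the liver phosphorylase Pygl, which breaks glycogen down, rose by 0.35 ± 0.08 (0.00680). In Y147F 6 were called, 2 higher and 4 lower, where 11.6% of all genes were, the first 4 by p being Stbd1 (-0.88 ± 0.14), the kinase Gsk3b (0.36 ± 0.07), the muscle synthase Gys1 (0.29 ± 0.07) and Ugp2 (-0.25 ± 0.07). KO and GS gave 0 of 23 each, where 0.177% and 0.148% of all genes were called, and 0 at an unadjusted p under 0.05. The calls of Stbd1 held in every alternative fit in both genotypes. Pygl in WT was lost without WT PBS replicate 2 (adjusted p = 0.0533), and Ppp1r3e in WT without WT T3 replicate 2 (0.161) or 3 (0.0751), or WT PBS replicate 1 (0.0727) or 3 (0.138). Pygb in WT was lost without WT T3 replicate 2 (0.0670) or 3 (0.143) or any 1 WT PBS array (0.0559 to 0.127), and Ugp2 in Y147F without Y147F PBS replicate 2 (0.0722) or Y147F T3 replicate 2 (0.0588).

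The Stbd1 response differed between GS and WT by 0.99 ± 0.20 (adjusted p = 0.00487, in every alternative fit), as did that of Pygl by -0.46 ± 0.12 (0.0348), 2 of 23 called, against 2.92% of all genes. That of Pygl was lost without WT T3 replicate 1 or 3, WT PBS replicate 1 or 2, GS T3 replicate 2 or 3 or GS PBS replicate 1 or 2 (adjusted p of 0.0629 to 0.107, differences of -0.46 to -0.39). Among PBS mice Pygl was higher in KO by 0.45 ± 0.08 (0.00223) and in GS by 0.47 ± 0.08 (0.00214). Neither was lost without any 1 array, but both were when only the 6 arrays compared were fitted (0.0733 and 0.0508). Pygl with PBS read 13.06, 12.93 and 13.21 in WT, 13.35, 13.66 and 13.53 in KO and 13.60, 13.56 and 13.44 in GS.

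Of 14 other gluconeogenic genes tested, 0 were called with T3 in WT, KO or GS (3, 3 and 1 with an unadjusted p under 0.05), and 1 in Y147F, the coactivator Ppargc1a (0.51 ± 0.14, adjusted p = 0.0225), which was lost without Y147F PBS replicate 3 (0.116) or Y147F T3 replicate 1 (0.0605) or 3 (0.0806). Of all genes tested, 10.6% were called with T3 in WT, 0.177% in KO, 0.148% in GS and 11.6% in Y147F. Without T3, Ppargc1a was lower in KO than in WT by 0.69 ± 0.14 (0.00524), with 8.17, 8.01 and 8.01 against 8.62, 9.14 and 8.51, and so was the aminotransferase Got1 by 0.72 ± 0.15 (0.00565). These 2 of 14 were the calls there, against 6.87% of all genes, in the direction opposite to G6pc and Pck1. Both held without any 1 array, but not when only the 6 arrays compared were fitted (0.0614 and 0.0568). After T3 Ppargc1a was lower by 0.88 ± 0.14 in KO (5.49e-04) and by 0.88 ± 0.14 in GS (6.54e-04), in every alternative fit.

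Of 22 other glycolytic genes tested, 1 was called with T3 in WT, the enolase Eno3 (-0.25 ± 0.07, adjusted p = 0.0193), lost without WT T3 replicate 2 (0.0965) or 3 (0.0977) or WT PBS replicate 2 (0.0666) or 3 (0.0718). In Y147F 2 were, Pfkfb4 (0.42 ± 0.10, lost without Y147F T3 replicate 1, 0.0686) and Tkfc (-0.46 ± 0.14, lost without Y147F PBS replicate 1 or 3 or Y147F T3 replicate 1 or 2, 0.0924 to 0.159). In KO and GS 0 were called, with 2 each at an unadjusted p under 0.05. The shares of all genes called with T3 were 10.6% in WT, 11.6% in Y147F, 0.177% in KO and 0.148% in GS. Without T3 lactate dehydrogenase Ldha was higher in KO by 0.41 ± 0.08 (0.00248, in every alternative fit) and in GS by 0.31 ± 0.08 (0.0302, lost without WT PBS replicate 1 or 2 or GS PBS replicate 1 or 3, 0.0506 to 0.146). Of 9 other glucose transporter genes, 0 were called with T3 in WT, KO or GS and 2 in Y147F, Slc2a5 (-0.65 ± 0.16, 0.0108) and Slc2a9 (-0.27 ± 0.09, 0.0465), the first lost without Y147F T3 replicate 2 (0.0761). The second was lost in 5 of the alternative settings fitted and without any 1 of 16 arrays, all Y147F arrays but T3 replicate 3 among them (0.0510 to 0.176).

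Of 22 regulators of these genes, 9 were called with T3 in WT, 5 higher and 4 lower, and 8 in Y147F, 4 each way, where 10.6% and 11.6% of all genes were. In KO and GS 0 were called, where 0.177% and 0.148% of all genes were, and 3 and 1 had an unadjusted p under 0.05. The insulin receptor substrate Irs1 fell by 1.22 ± 0.13 in WT (1.33e-06) and 1.31 ± 0.13 in Y147F (6.41e-07), and the factor Creb3l3 by 0.51 ± 0.06 and 0.47 ± 0.06. Cebpb, a factor acting on the Pck1 promoter, rose by 1.19 ± 0.13 in WT and 0.74 ± 0.13 in Y147F. The glucocorticoid receptor gene Nr3c1 rose by 0.72 ± 0.10 in WT, and Mlxipl, which encodes the sugar-sensing factor ChREBP that acts on Pklr, rose by 0.93 ± 0.12 in Y147F, where Pklr fell. These 8 calls held in every alternative fit. In WT, Mlxipl rose too (0.87 ± 0.12, 3.11e-05), a value outside the naming rule and picked after it was seen. The KO response minus that of WT was called for 5 of the 22 regulators, against 3.09% of all genes. The GS response minus that of WT was called for 6, against 2.92%, with Cebpb at -1.30 ± 0.19 in both (2.92e-04 and 2.62e-04).

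The pattern over the 8 group means was compared between each of the 4 genes with a span of at least 1 log2 and all genes tested, as the root mean square difference of centred means. Nearest to Ppp1r3c were Ccnf (0.17), Irs1 (0.22) and Tgm1 (0.23), against 0.67 for Ppp1r3c around its own mean. Nearest to Pklr, at 0.36 around its own mean, were Slc30a10 (0.10), Lad1 (0.10) and Onecut2 (0.12). Nearest to Ppp1r3b, at 0.32, were H2bc21 (0.09), Ednrb (0.11) and Fosl2 (0.13). Ppp1r3g had no close neighbour: the nearest, Tuba8 (0.59), Krt23 (0.60) and Dio3os (0.62), were far off beside 0.95 for Ppp1r3g itself. With 8 means each, these are descriptions.

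**Figure D5:**
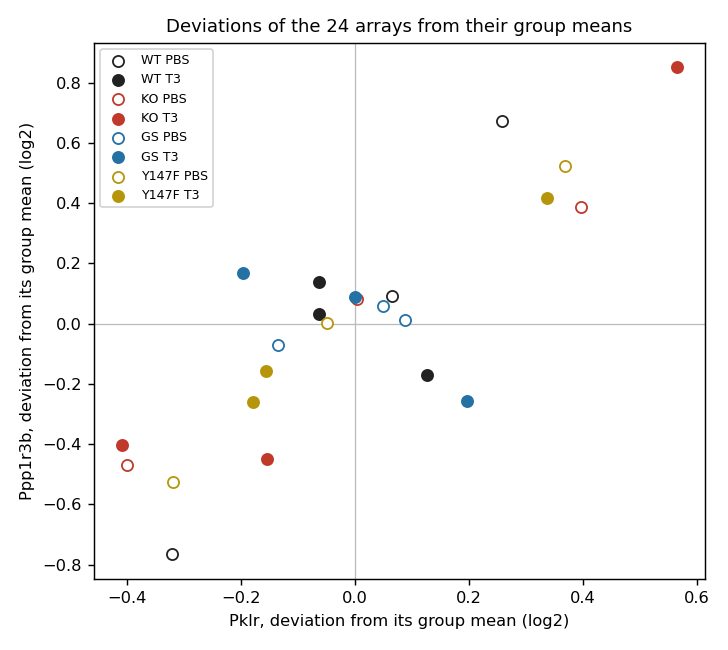
Each point is 1 of the 24 arrays, with the deviation of Pklr from its group mean (log2) on the horizontal axis and that of Ppp1r3b on the vertical axis, open for PBS and filled for T3. The points rise together, with r = 0.84.

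Whether genes of the set varied together among mice of a group was also examined. Deviations from the group means were correlated over the 24 arrays for the 36 pairs of genes, with arrays permuted within groups 100000 times. Pklr and Ppp1r3b gave r = 0.84 and Spearman's rho = 0.74 (permutation p = 0.00119 and 0.00457, adjusted over the pairs 0.0428 and 0.165), the 1 pair of 36 that passed by r. Without the 2 arrays farthest out in Pklr, r was 0.78, and it was 0.79 in the 18 first-submitted arrays and 0.99 in the 6 later ones, which are few. By rho the pair did not pass. Among the 13817 genes with no missing cell, Ppp1r3b ranked 7 by r with Pklr, so genes outside the set varied with Pklr at least as closely. Of the others, G6pc with Ppp1r3g (0.61, adjusted p = 0.181), with Pklr (0.60, 0.181) and with Ppp1r3b (0.56, 0.181) were next. By r with G6pc, Ppp1r3g, Pklr and Ppp1r3b ranked 204, 223 and 350 among those genes. A positive r was found in 21 of 36 pairs.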

How the data were processed

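Liver RNA (200 ng a sample) of 24 mice was hybridised to Affymetrix arrays. The authors summarised the arrays by RMA, per the submitters' processing notes, and deposited 1 column of log2 intensities a sample for 45101 probe sets. Its version was not given in the sources read for this text. In the 6 Y147F columns the deposited values had lost their decimal mark (another unit until restored). The mark was put back so that each value fell between 3 and 16, and 0.433% of 270606 cells that could not be read were left missing. The same steps on damaged copies of the 18 intact columns gave 806820 cells right, 0 wrong and 4998 left missing.

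Of the probe sets, 34958 carried 1 symbol, 932 several and 9211 none. A gene was represented by its brightest probe set with 1 symbol. A gene was tested where at least 3 arrays held it at or above their 40th percentile, which left 14160 of 18194, 343 of them with a missing cell. limma 3.58.1 in R 4.3.3 fitted 8 group means over all 24 arrays, with a two-sided moderated test (16 residual and 4.28 prior degrees of freedom) and Benjamini-Hochberg adjustment over all genes tested. Intervals cover 95%. The p-values measure the spread between these arrays, which were taken as separate animals from their title numbers. Replicates were numbered in order of deposit, and no pairing was assumed. The test was checked on simulated data for T3 against PBS in WT over 14160 genes. It recovered 32% of genes changed 1.25-fold, 84% at 1.5-fold and 100% at 2-fold, and called 6 unchanged genes. The changed genes were picked at random. Other comparisons were not simulated, so these shares do not carry over to KO, GS, response differences or genes as variable as Ppp1r3g.

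The 9 genes and the pathway and marker lists were chosen with earlier results of these data known. Of each pathway list, up to 4 called genes with the smallest p were named per comparison. Genes most like a gene of the set were named for those with group means spanning at least 1 log2. Listed genes that no probe set gives alone, and Ppp1r3a, under the filter, were not analysed here. Alternatives were quantile normalization, no filter or one at the 60th percentile, the mean of probe sets, every probe set fitted singly, a variance trend with robust moderation, array weights, a fit of only the arrays compared, the 18 first-submitted arrays alone, a covariate for title numbers over 100000, and leaving out each array.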

Additional observations from a re-analysis of the deposited data

Results flagged for a closer look

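Some T3 responses differed between genotypes by limma's test of the difference itself, at an adjusted p under 0.05. Given here, on the log2 scale, are those of the 9 genes and, of each pathway list, up to 4 with the smallest p, so further regulators and glycogen genes that passed are not listed. For KO minus WT the values were Cebpb (-1.30), Nr3c1 (-0.69), Mlxipl (-0.80) and Creb3l3 (0.44). For GS minus WT the values were Ppp1r3c (1.52), Stbd1 (0.99), Pygl (-0.46), Cebpb (-1.30), Nr3c1 (-0.80), Mlxipl (-0.90) and Creb3l3 (0.47).

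For the mean response of KO and GS minus that of WT and Y147F, a comparison chosen after the values were seen, the responses given by the same rule were Ppp1r3c (1.27), Irs1 (0.83), Stbd1 (0.80), Slc2a5 (0.57), Creb3l3 (0.43), Ppp1cc (0.22), Gsk3b (-0.31), Pygl (-0.33), Pfkfb4 (-0.35), Mlxipl (-0.88) and Cebpb (-1.07). Positive values mean that the response was higher, or less negative, in the mice without a DNA-binding TRβ. Groups of 3 arrays were not searched for single outlying arrays.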

How the results depend on the processing

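No difference of the 9 genes that was called changed its sign under any alternative. Comparisons with Y147F had no fit of the 18 first-submitted arrays alone, which hold no Y147F mice. The number of the 9 genes called did change by more than 1.5-fold in several comparisons. With 1 array left out it ran from 1 to 4 for T3 in WT, from 1 to 4 for T3 in Y147F, from 0 to 1 for the response of KO minus WT, from 0 to 1 for that of GS minus WT, from 0 to 2 for KO minus WT with PBS, from 0 to 1 for GS minus WT with PBS, from 0 to 1 for GS minus WT after T3, from 4 to 8 for the mean of WT and Y147F, and from 1 to 2 for the difference of the mean responses. With a variance trend and robust moderation it was 1 for the response of KO minus WT, 0 for that of GS minus WT, 1 for KO minus WT after T3, 2 for GS minus WT after T3 and 2 for the difference of the mean responses. For the response of GS minus WT it was also 0 with no filter, array weights, the title-number covariate, the 18 first-submitted arrays alone and every probe set fitted singly. For KO minus WT with PBS it was 1 with the mean of probe sets, 0 with only the arrays compared and 0 with the covariate. For KO minus WT after T3 it was 1 with only the arrays compared. For GS minus WT after T3 it was 0 with quantile normalization, no filter, the covariate, the first-submitted arrays alone and every probe set singly, and 2 with only the arrays compared and with array weights. For the mean of WT and Y147F it was 4 with the covariate. Fitting only the arrays compared leaves fewer arrays to estimate the spread, and no filter raises the number of genes adjusted for. The cause of the other changes was not tested. Of 98 calls of the other pathway genes, 49 held in every fit and 49 were lost in at least 1, with 0 reversed. No paired analysis was possible because no replicate number is shared between groups in the labels.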

Other observations

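Among PBS mice, 4 of the 23 other glycogen genes were called between KO and WT, where 6.87% of all genes were. Beside Pygl (0.45 ± 0.08), these were 2 catalytic subunits of protein phosphatase 1, Ppp1ca (-0.27 ± 0.07, adjusted p = 0.0174) and Ppp1cc (-0.22 ± 0.06, 0.0216), and Nhlrc1 (-0.68 ± 0.17, 0.0197), the ligase malin. Of the 22 regulators, the glucagon receptor gene Gcgr (0.28 ± 0.07, 0.0164) and Cebpb (0.54 ± 0.13, 0.0181) were higher in KO. The call of Ppp1ca was lost without WT PBS replicate 1 or 2 or KO PBS replicate 2 or 3 (0.0534 to 0.0911), that of Nhlrc1 without WT PBS replicate 2 or 3 or KO PBS replicate 2 (0.0668 to 0.0851), and that of Ppp1cc without WT PBS replicate 2 or KO PBS replicate 1 or 3 (0.0567 to 0.132). That of Gcgr was lost without WT PBS replicate 3 or KO PBS replicate 1 or 3 (0.0590 to 0.0808), and that of Cebpb without WT PBS replicate 1 or 2 or KO PBS replicate 2 or 3 (0.0567 to 0.0875).

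After T3, 4 of the 14 other gluconeogenic genes were called between GS and WT, where 5.61% of all genes were. All 4 were lower in GS: Ppargc1a (-0.88 ± 0.14), the alanine aminotransferases Gpt2 (-0.31 ± 0.09, 0.0403) and Gpt (-0.27 ± 0.08, 0.0491), and the tyrosine aminotransferase Tat (-0.53 ± 0.15, 0.0424). The call of Ppargc1a held in every alternative fit. That of Gpt2 was lost without any 1 of the 3 WT T3 arrays or GS T3 replicate 1 or 3 (0.0512 to 0.199), that of Tat without WT T3 replicate 1 or 2 or any 1 of the 3 GS T3 arrays (0.0814 to 0.199), and that of Gpt in 5 of 10 settings and without any 1 of 17 arrays, WT T3 replicates 1 and 2 and GS T3 replicates 2 and 3 among them (0.0524 to 0.206).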
